A study of Homo sapiens with 60 samples.

Results

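The respiratory chain genes described here are the protein-coding genes whose symbols name a subunit of complexes I to V or an assembly factor of the NDUFAF series. Members were taken by symbol, as NDUFA, NDUFB, NDUFC, NDUFS, NDUFV, UQCR, COX4 to COX8, ATP5, MT-ND, MT-CO, MT-CYB or MT-ATP at the start, or exactly SDHA to SDHD, with a mean of at least 1 CPM (counts scaled to equal library totals) over 60 libraries. Of 60675 gene IDs in the table, 111 matched by symbol and 102 passed the minimum, of which 89 are nuclear and 13 are encoded by the mitochondrial genome. The nuclear members hold 37 subunits of complex I, 8 assembly factors of complex I, 4 subunits of complex II, 9 of complex III, 12 of complex IV (NDUFA4 among them) and 19 of complex V. The mitochondrially encoded members hold 7 subunits of complex I, 1 of complex III, 3 of complex IV and 2 of complex V.

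The respiratory chain sits in the inner mitochondrial membrane. Complex I (NADH dehydrogenase) and complex II (succinate dehydrogenase, also an enzyme of the tricarboxylic acid cycle) pass electrons to ubiquinone, complex III passes them to cytochrome c, and complex IV (cytochrome c oxidase) passes them to oxygen. Complex V, the ATP synthase, uses the resulting proton gradient to make ATP. Most subunits are made from nuclear genes and imported, while a few core subunits of complexes I, III, IV and V are made inside mitochondria from long transcripts that are cut into the mature mRNAs. NRF1 and the ETS factor GABPA are known regulators of nuclear respiratory genes. HT29, a human colorectal adenocarcinoma cell line, makes much of its ATP by glycolysis when glucose is plentiful and also respires.

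Messenger RNA was sequenced in 60 libraries of HT29 cells, all exposed for 24 h, in 25 groups. The treated groups were 8 herbal extracts at 3 doses. Hot water extracts were Yijin-tang (n = 3 a dose) and Soshiho-tang (n = 2 a dose), both decoctions of several herbs. The 70% ethanol extracts of single herbs were Zizyphi Semen, Longan Arillus, Schisandrae Fructus and Liriopis seu Ophiopogonis Tuber (n = 3 a dose), and Aucklandiae Radix and Polygalae Radix (n = 1 a dose, not tested). They are called Liriopis, Schisandrae, Longan, Zizyphi, Polygalae and Aucklandiae below. Low, medium and high doses were 20, 100 and 500 µg/mL, but 15.2, 76 and 380 µg/mL for Polygalae and 14.8, 74 and 370 µg/mL for Aucklandiae. The control was DMSO vehicle (n = 3), at 0.1% per the sample labels and 2% per the series description, which could not be settled. The prefixes of the library names put the vehicle in set C1, both decoctions in set 8, Liriopis and Schisandrae in set 9, Longan and Zizyphi in set 10, and Polygalae and Aucklandiae in set 11, so that extract and library set cannot be told apart in any comparison with the vehicle. Nothing says that replicates came from separate cultures, so that p-values measure only the spread between these libraries. Libraries held 18161717 to 35128954 expected counts. Among epithelial markers, KRT8 was at 4610 to 8590 CPM, EPCAM at 384 to 742 CPM and VIL1 at 56.3 to 177 CPM over the libraries. Others of the list were low: CDX2, CDH17 and GPA33 had medians of 4.31, 2.72 and 2.69 CPM, and the colon transcription factor CDX1 had a median of 0.803 CPM. Fibroblast and endothelial markers summed to at most 12.2 CPM.

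Some promoters of nuclear members carry a motif of NRF1 or of ETS factors, and 1 promoter per complex, picked with a motif, is printed. Promoters were read from RefSeq (GRCh38.p14), as windows from 250 bases before to 50 after the gene's start, and 73 of the 89 nuclear members were matched. The NRF1 motif (GCGCA and GCGC with 1 base of any kind between them, searched on both strands) was in 17 of 73 members (23.3%), against 6.05% of 27305 promoters of the table and 11.7% of 9450 promoters of protein-coding genes with at least 1 CPM here. The ETS motif CCGGAAG, searched on both strands, was in 22 members (30.1%), against 10.6% and 20.3%. The NF-Y motif CCAAT was in 26 members (35.6%), against 35.6% and 36.9%. The NRF1 motif was in 6 of 32 promoters of complex I, 1 of 7 of its assembly factors, 2 of 3 of complex II, 4 of 7 of complex III, 0 of 10 of complex IV and 4 of 14 of complex V. The ETS motif was in 4, 2, 2, 3, 5 and 6 promoters of these groups. Of the 73 promoters, 36 held at least 1 of the NRF1 and ETS motifs, 3 held both and 37 held neither. A match describes these letters and is no measured binding site. In the windows printed, which end at the base before the start and run in the direction of the gene, capitals mark the NRF1 motif (SDHA, ATP5ME), on either strand, or the ETS motif, read on the other strand in UQCRH and COX8A.
NDUFB7, complex I, chr19:14572067-14572316, minus strand: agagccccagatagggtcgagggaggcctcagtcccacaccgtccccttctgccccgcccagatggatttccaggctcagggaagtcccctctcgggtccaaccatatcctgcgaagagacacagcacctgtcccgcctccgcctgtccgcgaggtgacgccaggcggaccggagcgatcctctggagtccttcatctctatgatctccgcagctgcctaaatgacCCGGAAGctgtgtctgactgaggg
SDHA, complex II, chr5:218070-218319, plus strand: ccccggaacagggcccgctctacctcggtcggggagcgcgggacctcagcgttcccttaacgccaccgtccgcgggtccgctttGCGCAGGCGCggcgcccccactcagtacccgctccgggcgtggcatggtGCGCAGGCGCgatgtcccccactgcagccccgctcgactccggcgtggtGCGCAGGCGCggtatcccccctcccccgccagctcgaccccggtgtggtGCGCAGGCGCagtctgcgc
UQCRH, complex III, chr1:46303448-46303697, plus strand: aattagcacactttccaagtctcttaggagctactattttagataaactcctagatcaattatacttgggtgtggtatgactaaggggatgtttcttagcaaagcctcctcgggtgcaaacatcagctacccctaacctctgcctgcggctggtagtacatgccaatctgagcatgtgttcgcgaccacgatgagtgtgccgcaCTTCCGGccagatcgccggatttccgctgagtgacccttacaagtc
COX8A, complex IV, chr11:63974370-63974619, plus strand: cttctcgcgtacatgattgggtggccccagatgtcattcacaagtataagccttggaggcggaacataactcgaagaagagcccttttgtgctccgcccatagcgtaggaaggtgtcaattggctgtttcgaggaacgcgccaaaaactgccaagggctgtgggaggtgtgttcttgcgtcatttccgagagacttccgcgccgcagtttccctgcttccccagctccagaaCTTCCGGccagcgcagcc
ATP5ME, complex V, chr4:674277-674526, minus strand: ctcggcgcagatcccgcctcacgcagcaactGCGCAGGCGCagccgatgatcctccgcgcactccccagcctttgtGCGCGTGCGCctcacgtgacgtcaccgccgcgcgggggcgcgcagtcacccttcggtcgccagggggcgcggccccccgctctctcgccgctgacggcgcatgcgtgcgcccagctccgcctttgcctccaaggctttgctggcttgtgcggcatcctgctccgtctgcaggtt
SDHA held the NRF1 motif 4 times and ATP5ME 2 times, while NDUFB7, UQCRH and COX8A each held the ETS motif once.

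On the mitochondrial genome, 2 pairs of members share bases on the same strand, so that reads within the shared stretch match both genes. These stretches are printed because MT-ATP8 and MT-ND4L, each the smaller gene of its pair, recur in the results. MT-ATP8 (207 bases) and MT-ATP6 share 46 bases, and MT-ND4L (297 bases) and MT-ND4 share 7 bases, in capitals in the 60 bases of GRCh38 that end with the first gene of each pair.
MT-ATP8 and MT-ATP6, chrM:8513-8572, plus strand: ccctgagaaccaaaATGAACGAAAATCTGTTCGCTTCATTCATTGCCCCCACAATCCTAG
MT-ND4L and MT-ND4, chrM:10707-10766, plus strand: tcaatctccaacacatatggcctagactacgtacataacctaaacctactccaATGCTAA
MT-ND6 alone among the 13 lies on the other strand. The kit is directional per the labels' protocols, but whether counting used strand is not given in the sources used here.

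Transcripts from the mitochondrial genome were far more abundant than those of nuclear members. Per kb of exon, the vehicle mean had a median of 7640 CPM per kb over the 13 mitochondrially encoded members and of 24.7 CPM per kb over the 89 nuclear members. The 3 core subunits of cytochrome c oxidase were near the top, with MT-CO2 at 19180 ± 2256 CPM per kb, MT-CO3 at 18190 ± 1535 CPM per kb and MT-CO1 at 14950 ± 1371 CPM per kb (SD, n = 3). MT-ATP6, the proton channel subunit of ATP synthase, had 16020 ± 3070 CPM per kb, so that these 4 did not differ beyond their spread in neighbouring ranks. MT-ND4 (10380 ± 1927 CPM per kb), MT-ATP8 (10060 ± 2069), MT-CYB, the cytochrome b of complex III (7639 ± 1245), MT-ND1 (6667 ± 1422), MT-ND2 (6006 ± 1280), MT-ND3 (5509 ± 1158) and MT-ND4L (4537 ± 660) followed, and again neighbours lay within their spread. MT-ND5 (3163 ± 643) and MT-ND6 (2444 ± 702) were lowest.

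Among nuclear members the vehicle median per kb was 21.5 CPM for complex I, 6.94 for its assembly factors, 29.6 for complex II, 30.0 for complex III, 37.1 for complex IV and 36.5 for complex V. The highest member over all 60 libraries was NDUFS5 for complex I, NDUFAF2 for the assembly factors, SDHA, the flavoprotein, for complex II, UQCR10 for complex III, COX8A for complex IV and ATP5F1B, the catalytic beta subunit, for complex V. COX8A was the highest nuclear member in the vehicle at 336 CPM per kb and the assembly factor NDUFAF5 the lowest at 1.16 CPM per kb. Complex II ran from 7.85 CPM per kb for SDHC, a membrane anchor, to 31.6 CPM per kb for SDHA. The 9 matching genes under 1 CPM were largely isoforms known from other tissues: COX4I2 and COX8C were at 0 in all 60 libraries, COX6A2 and COX7B2 were above 0 in 1 library each, and COX7A1, an isoform of heart and skeletal muscle, had a median of 0.145 CPM. NDUFA4L2, known as a gene raised by low oxygen, had a median of 0.358 CPM and reached 1.44 CPM in the Aucklandiae high library. UQCRHL, a near copy of UQCRH, and ATP5MF-PTCD1, a readthrough of ATP5MF into PTCD1, share sequence with their partners, and their counts are uncertain.

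**Figure D1:**
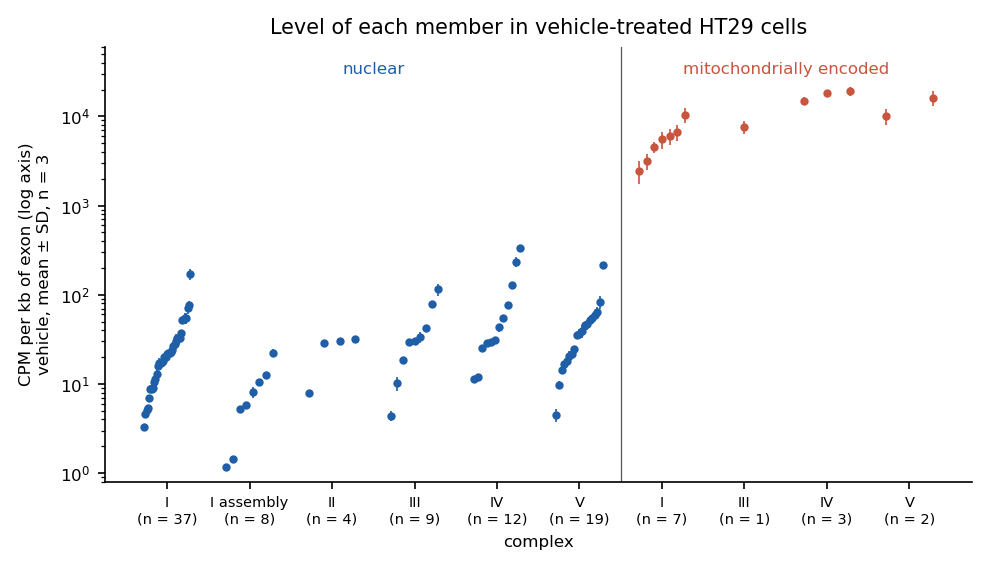
Vehicle mean ± SD (n = 3) of each member in CPM per kb of exon on a log axis, by complex, with nuclear members on the left and mitochondrially encoded members on the right. The 13 mitochondrially encoded members lie between 2440 and 19200 CPM per kb, and the 89 nuclear members between 1.16 and 336 CPM per kb.

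The 13 mitochondrial mRNAs held 6.64% (Aucklandiae high) to 11.6% (1 Zizyphi high library) of the counts of the extract libraries, against 12.1, 9.21 and 11.5% in the 3 vehicle libraries, so that vehicle replicate 2 lay inside the range of the extracts and vehicle replicate 1 above it. The nuclear share ran from 0.614% in the Aucklandiae high library to 1.52% in replicate 2 of Yijin-tang low, and all other extract libraries had at most 0.874%, against 0.715, 0.778 and 0.783% in the vehicle. At the low dose of Longan the mitochondrial share was 7.85, 9.61 and 7.55% and the nuclear share 0.806, 0.773 and 0.810%. Within groups, mitochondrially encoded members varied more than nuclear ones: the median SD was 0.158 log2 units over the 13 members, from 0.131 for MT-CO1 to 0.256 for MT-ND6, against 0.0893 over the 89 nuclear members, from 0.0392 for NDUFA10 to 0.172 for UQCRHL. These SDs leave out the pair of libraries described next, and with them the medians were 0.210 and 0.192.

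**Figure D2:**
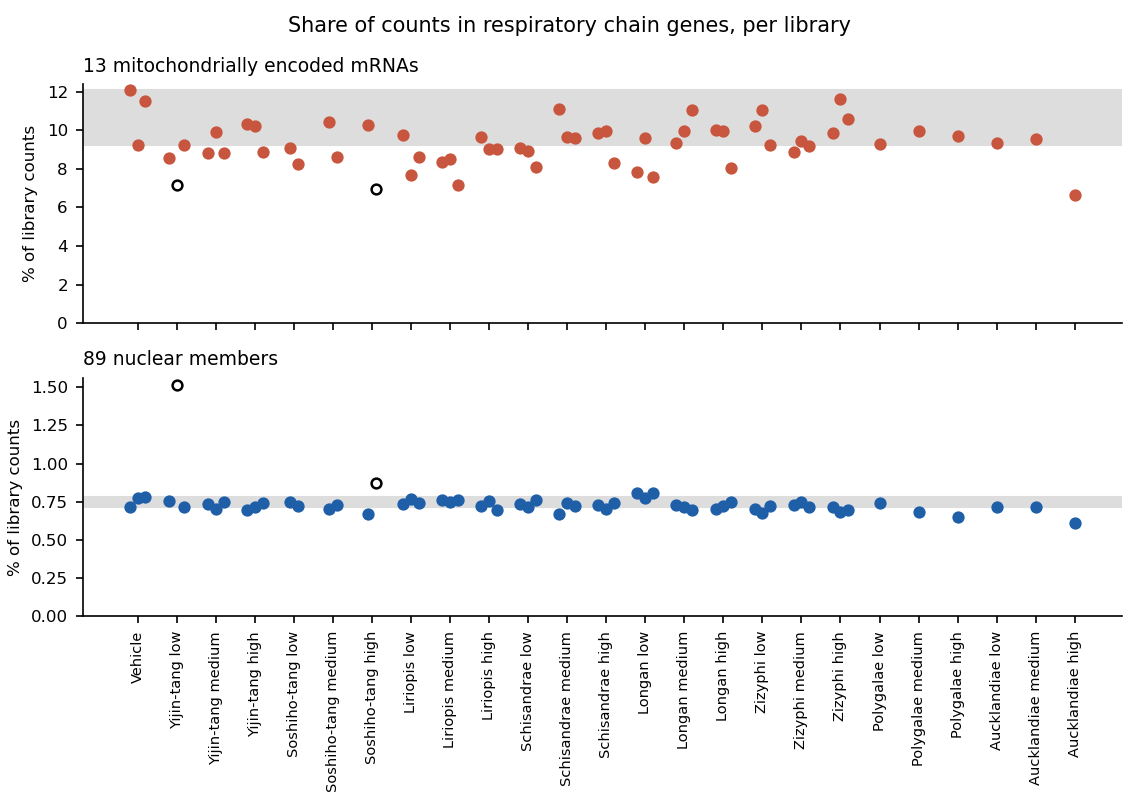
Percent of each library's counts in the 13 mitochondrially encoded mRNAs (top) and the 89 nuclear members (bottom), 1 point per library. The grey band is the range of the 3 vehicle libraries, 9.21 to 12.1% and 0.715 to 0.783%, and open points are Yijin-tang low replicate 2 (1.52% nuclear) and Soshiho-tang high replicate 3 (0.874% nuclear).

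Replicate 2 of Yijin-tang low stood apart from the other libraries of its group in members of both genomes. Of the 89 nuclear members, 82 had their highest value of all 60 libraries there. Matching counts over all genes are not given here. This count and those below are therefore not shown to be particular to the members. Set against the mean of the other 2 libraries of the group, on log2(CPM + 0.5), 84 nuclear members lay above and 5 below, with a median of 1.18. The median was 1.38 for complex IV, with 12 of 12 above, 1.23 for complex I, 1.14 for complex III, 1.05 for complex V, 0.715 for the assembly factors and 0.536 for complex II. All 44 members with exons shorter than the median of the nuclear members lay above, with a median of 1.32, and 40 of the 45 longer ones, with a median of 1.11. UQCRQ, a small subunit of complex III, lay at 1.83 and NDUFA2 of complex I at 1.80, against -0.60 for NDUFS1, the largest core subunit of complex I, and -4.75 for ATP5MF-PTCD1. The 13 mitochondrially encoded members went both ways. MT-ND4L was at 221 CPM in this library, against 1374 and 1112 CPM in the other 2 libraries, and MT-ND3 at 3237 CPM, against a mean of 1277 CPM. MT-ND6, on the other strand, was at 1532 CPM, against a mean of 815 CPM. Cytosolic ribosomal protein genes held 11.5% of its counts, against 5.36 and 5.02% in its group and 4.94, 5.49 and 5.75% in the vehicle. What part these have in the member values was not tested.

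Replicate 3 of Soshiho-tang high stood apart in another way. Against replicate 2 of its group, 85 of 89 nuclear members lay above, with a median of 0.37, led by NDUFB1 of complex I at 1.53, and 12 of 13 mitochondrially encoded members lay below, with a median of -0.79 and the lowest value for MT-ATP8 at -1.29. The shares of all genes above and below in this ratio of single libraries are not given here. These counts are therefore not shown to be particular to the members. Complex IV had the highest nuclear median at 0.63 and the assembly factors the lowest at 0.17. Of the 11 markers of leukocytes and blood, 9 had their highest value of all libraries there, among them LAPTM5 at 4.61 CPM, HLA-DRA at 3.86 CPM, HBB at 3.30 CPM and S100A9 at 3.20 CPM, whose medians over 60 libraries were 0 to 0.295 CPM. The summed level of the list was 1565 CPM in this library, against 1183 CPM in replicate 2 and 1431, 1545 and 1460 CPM in the vehicle, nearly all of it LYZ, which the cells themselves express. The part of these transcripts in the member values was not tested. Calls of members that rest on either library are given with and without them.

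The same libraries marked the upper end of the range for most members with the highest level per kb in their complex. SDHA was at 176 CPM (Aucklandiae high) to 307 CPM (a Longan low library) with the extracts, against 257, 283 and 256 CPM in the vehicle. COX8A was at 122 CPM (Aucklandiae high) to 252 CPM (Soshiho-tang high replicate 3) with the extracts, leaving out Yijin-tang low replicate 2 with 387 CPM, against 176, 167 and 167 CPM in the vehicle. ATP5F1B was at 364 CPM (Polygalae high) to 592 CPM (Soshiho-tang high replicate 3) with the extracts, against 515, 507 and 483 CPM in the vehicle. NDUFS5, NDUFAF2 and UQCR10 were at 216, 45.7 and 215 CPM in Yijin-tang low replicate 2 and at no more than 104, 25.4 and 131 CPM in any other library.

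**Figure D3:**
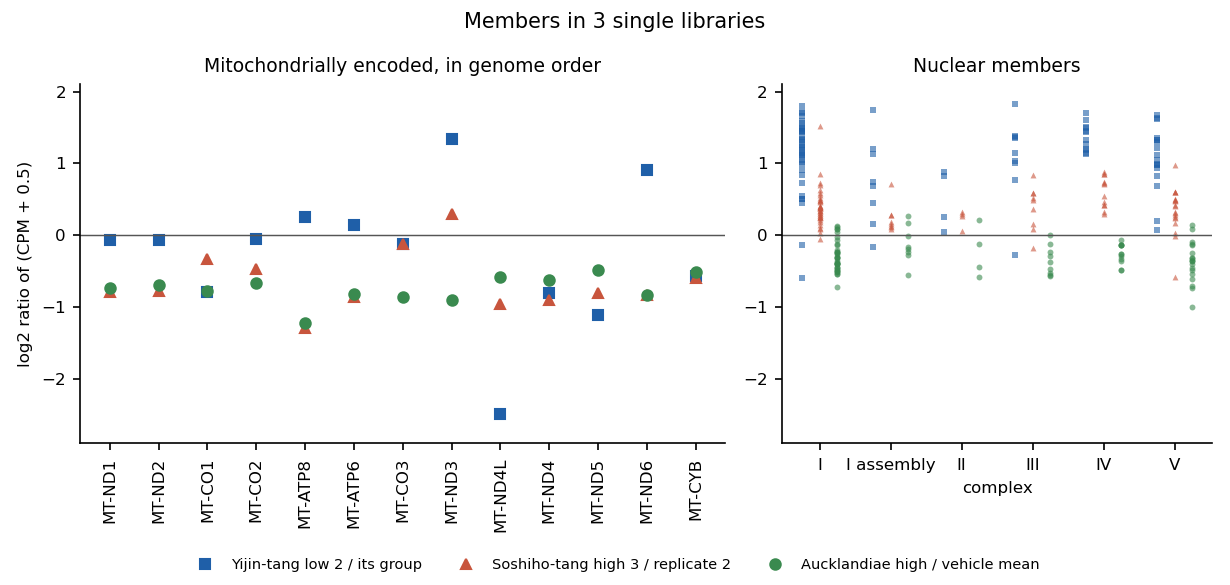
Log2 ratio of CPM + 0.5 in 3 single libraries, to the mean of the other libraries of the group (Yijin-tang low 2, Soshiho-tang high 3) or to the vehicle mean (Aucklandiae high), for the 13 mitochondrially encoded members in genome order (left) and nuclear members by complex (right). MT-ND4L at -2.49 and MT-ND3 at 1.34 mark Yijin-tang low 2, and ATP5MF-PTCD1 at -4.75 in that library lies below the axis.

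Every comparison is given from 1 fit over all 54 libraries of the groups with 2 or 3 libraries, and again from the same fit over 52 libraries, without the pair above. Both used edgeR's quasi-likelihood test, and members with a Benjamini-Hochberg adjusted p under 0.05 over all genes tested (16890 and 17330) were called. Counts at an unadjusted p under 0.05, and counts from a second tool, DESeq2, are given without the matching share of all genes. They are therefore not shown to be particular to the members. The pair left out stood apart in these same members, whose median SD within groups was 0.192 log2 units with it and 0.0893 without it for nuclear members. Comparisons of Liriopis, Schisandrae, Longan and Zizyphi contain neither library but share the estimate of spread. With Liriopis high the nuclear median was -0.122 in the fit of 54 libraries and -0.12 in that of 52, with 0 and 13 called. The 18 comparisons of an extract dose with the vehicle share the 3 vehicle libraries. Counts with a further library left out are given below without the share of all genes called in the same fit. Changes in these counts are therefore not shown to be particular to the members. Against the vehicle, the median log2 fold change over the 13 mitochondrially encoded members was below 0 at all 18 doses in both fits, from -0.57 for Liriopis medium to -0.02 for Zizyphi high. For Zizyphi high it was 0.07, 0.02 and 0.01 without vehicle replicate 1, vehicle replicate 3 and Zizyphi high replicate 1. Over the nuclear members it lay between -0.17 and -0.07 in the fit of all 54 libraries, apart from 0.47 for Yijin-tang low, 0.02 for Soshiho-tang high and 0.004 for Longan low. Without the pair of libraries these 3 medians were -0.10, -0.15 and 0.004, and Longan low was at -0.04 without vehicle replicate 1. The median over all genes tested lay between -0.011 and -0.00035 at the 6 high doses, and cytosolic ribosomal protein genes had medians of -0.17 to -0.12 at the high doses other than Soshiho-tang.

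**Figure D4:**
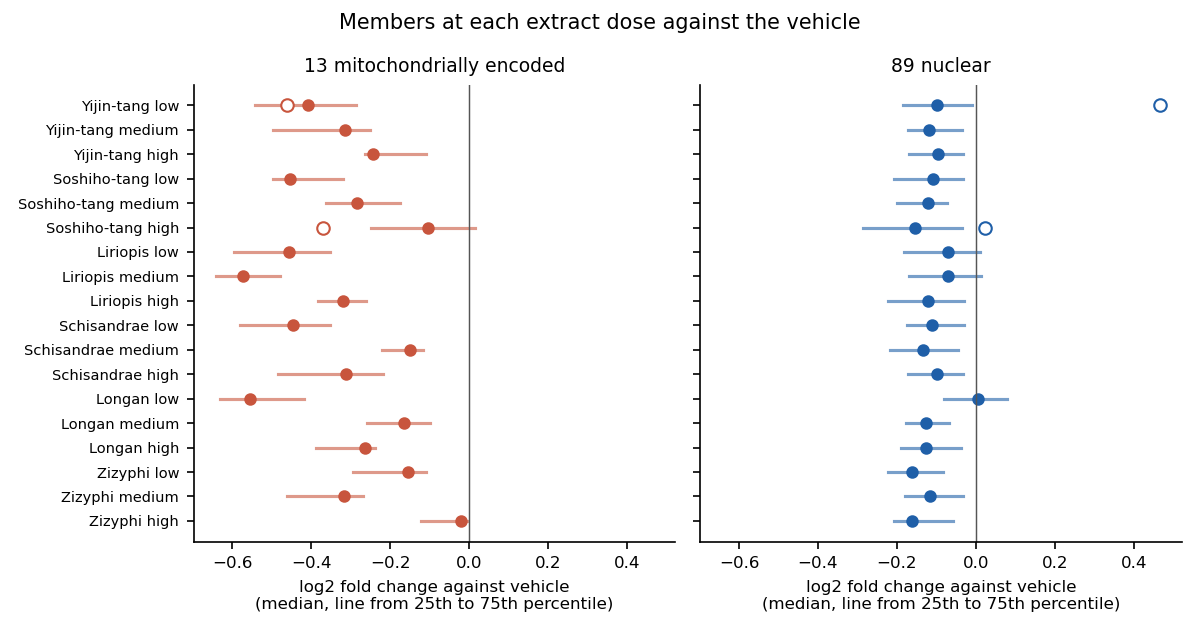
Median log2 fold change against the vehicle of the 13 mitochondrially encoded (left) and the 89 nuclear members (right) at 18 extract doses, with a line from the 25th to the 75th percentile of the members, in the fit of 52 libraries. Open points give the fit of all 54 libraries for Yijin-tang low (0.47 nuclear) and Soshiho-tang high (0.02 nuclear), and the mitochondrial medians lie below 0 at every dose.

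With Liriopis at the high dose, 13 of 89 nuclear members (14.6%) and 3 of 13 mitochondrially encoded members fell in the fit of 52 libraries, where 2.08% of all genes tested fell, and none rose. The nuclear ones were 5 subunits of complex I, 1 of complex III, 3 of complex IV and 4 of complex V. Over all 54 libraries edgeR called none, where 0.45% of genes were called in either direction. There 3 nuclear and 6 mitochondrially encoded members had an unadjusted p under 0.05, and DESeq2 called 0 nuclear and 1 mitochondrially encoded member. MT-ATP8, a small membrane subunit of ATP synthase, was at 1155, 1228 and 1108 CPM with Liriopis, against 2539, 1690 and 2019 CPM in the vehicle. The groups did not overlap, and the change was -0.89 ± 0.19 (log2 fold change ± SE, edgeR adjusted p = 0.0037). MT-ND3, a membrane subunit of complex I, was at 1249, 1151 and 1344 CPM with Liriopis, against 1789, 1577 and 2352 CPM in the vehicle (-0.66, adjusted p = 0.00064), and MT-ND6 changed by -0.69 (adjusted p = 0.028). ATP5MK, a small membrane subunit of ATP synthase, was at 39.6, 44.7 and 39.7 CPM with Liriopis, against 51.4, 53.0 and 49.1 CPM in the vehicle (-0.35 ± 0.07, adjusted p = 0.00070). COX7B, a structural subunit of complex IV, was at 66.5, 76.0 and 68.1 CPM with Liriopis, against 77.6, 91.0 and 90.8 CPM in the vehicle (-0.35, adjusted p = 0.0011). ATP5F1C, the rotating gamma subunit, was at 115, 122 and 115 CPM with Liriopis, against 124, 147 and 146 CPM in the vehicle (-0.29, adjusted p = 0.00051). NDUFA12, an accessory subunit of complex I, changed by -0.33 (adjusted p = 0.0064). All 4 nuclear genes named kept every Liriopis library below the vehicle range, but nuclear genes were named only if the groups did not overlap. The nuclear count of 13 became 3 without vehicle replicate 3 and 35 without vehicle replicate 1, and the mitochondrial count of 3 became 6 without vehicle replicate 2 and 2 without Liriopis high replicate 2. ATP5MK, COX7B, ATP5F1C, MT-ATP8 and MT-ND3 were called in all 6 fits that left out 1 library of either group.

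The medium dose of Liriopis held the most mitochondrially encoded members called in any comparison with the vehicle, 12 of 13 in the fit of 52 libraries, all lower, where 2.75% of all genes fell. MT-ND4L was the exception at -0.27 (adjusted p = 0.21). MT-ND6 was at 677, 711 and 827 CPM with Liriopis, against 1696, 987 and 1167 CPM in the vehicle (-0.87 ± 0.19, adjusted p = 0.0046). MT-ND1 changed by -0.69 (adjusted p = 0.0044), MT-ND2 by -0.67, MT-CO2 by -0.59 and MT-CO3 by -0.41. In 10 of these 12 genes the Liriopis libraries did not overlap the vehicle libraries, and MT-ND4 and MT-CYB overlapped. The 12 had been called on these same libraries, and the share of all genes without overlap is not given here, so that this count adds no separate support. With all 54 libraries 1 mitochondrially encoded member, MT-CO2, was called at -0.60 ± 0.14 (adjusted p = 0.035), where 0.148% of genes fell and 0.373% were called in either direction. There 12 had an unadjusted p under 0.05, and DESeq2 called 6. The count of 12 became 3 without Liriopis medium replicate 3. The medium dose also had 8 nuclear members lower in the fit of 52 libraries, which became 27 without vehicle replicate 1 and 2 without Liriopis medium replicate 3. At the low dose, 9 nuclear and 6 mitochondrially encoded members fell in the fit of 52 libraries, where 2.92% of genes fell, and edgeR called none in the fit of all 54, where 0.491% of genes were called. There 4 nuclear and 11 mitochondrially encoded members had an unadjusted p under 0.05, and DESeq2 called 0 and 3. The low-dose counts became 1 nuclear and 1 mitochondrial without vehicle replicate 3, 28 nuclear without vehicle replicate 1, and 11 mitochondrial without vehicle replicate 2.

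With Schisandrae at the high dose, 10 nuclear members (4 of complex I, 1 each of complexes II, III and IV, 3 of complex V) and 3 mitochondrially encoded members fell in the fit of 52 libraries, where 2.78% of all genes fell. Across all 54 libraries edgeR and DESeq2 called none, where edgeR called 0.693% of genes, and 2 nuclear and 5 mitochondrially encoded members had an unadjusted p under 0.05. ATP5MK was at 43.4, 42.1 and 40.5 CPM with Schisandrae, against 51.4, 53.0 and 49.1 CPM in the vehicle (-0.33, edgeR adjusted p = 0.0012). ATP5F1C changed by -0.28 (adjusted p = 0.00052), COX7B by -0.29 (adjusted p = 0.0053) and ATP5IF1, the inhibitor that stops the synthase from running backwards, by -0.29 (adjusted p = 0.0091). MT-ND6 was at 854, 938 and 615 CPM with Schisandrae, against 1696, 987 and 1167 CPM in the vehicle (-0.72, adjusted p = 0.016). MT-ND3 changed by -0.49 (adjusted p = 0.0096) and MT-ND1 by -0.48 (adjusted p = 0.045), and MT-ND1 overlapped the vehicle range. The 10 nuclear calls became 2 without vehicle replicate 3 and 32 without vehicle replicate 1, and the 3 mitochondrial calls became 7 without vehicle replicate 2 and 0 without Schisandrae high replicate 3. At the medium dose 20 nuclear and 1 mitochondrially encoded member (MT-ND3) fell in the fit of 52 libraries, where 2.77% of genes fell, and at the low dose 9 nuclear and 7 mitochondrially encoded members, where 2.21% fell. Fitted with all 54 libraries, edgeR called none at either dose, where 0.474% (medium) and 0.16% (low) of genes were called. The members with an unadjusted p under 0.05 there were 6 nuclear and 2 mitochondrially encoded at the medium dose and 4 and 12 at the low dose, of which DESeq2 called 1, mitochondrially encoded, at the low dose. Nuclear calls became 3 (medium) and 1 (low) without vehicle replicate 3, and 40 and 36 without vehicle replicate 1. The mitochondrial calls became 0 (medium) and 1 (low) without vehicle replicate 3, and those of the low dose 11 without vehicle replicate 2.

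With Longan at the high dose, 9 nuclear members (3 of complex I, 1 of complex II, 2 of complex III, 1 of complex IV, 2 of complex V) and 3 mitochondrially encoded members fell in the fit of 52 libraries, where 1.1% of all genes fell. On all 54 libraries edgeR and DESeq2 called none, where edgeR called 0.0829% of genes, and 3 nuclear and 4 mitochondrially encoded members had an unadjusted p under 0.05. MT-ATP8 was at 1338, 1233 and 1296 CPM with Longan, against 2539, 1690 and 2019 CPM in the vehicle (-0.74, edgeR adjusted p = 0.032). MT-ND6 was at 768, 812 and 790 CPM with Longan, against 1696, 987 and 1167 CPM in the vehicle (-0.74, adjusted p = 0.030), and MT-ND3 changed by -0.54 (adjusted p = 0.012). ATP5MK was at 38.4, 41.0 and 46.8 CPM with Longan, against 51.4, 53.0 and 49.1 CPM in the vehicle (-0.33, adjusted p = 0.0044). NDUFA7 and NDUFV3, accessory subunits of complex I, changed by -0.32 (adjusted p = 0.037) and -0.25 (adjusted p = 0.018), and SDHC by -0.14 (adjusted p = 0.025). The 9 nuclear calls became 0 without Longan high replicate 1 and 30 without vehicle replicate 1, and the 3 mitochondrial calls became 0 without Longan high replicate 1.

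At the low dose of Longan, nuclear and mitochondrially encoded members were called in opposite directions. In the fit of 52 libraries 11 of 13 mitochondrially encoded members fell, where 3.31% of all genes fell, and 4 nuclear members rose, where 1.42% of all genes rose. MT-ATP8 changed by -0.77 ± 0.19 (edgeR adjusted p = 0.014), MT-ND1 by -0.66, MT-ND5 by -0.63 and MT-ND4L by -0.57 (adjusted p = 0.0043). MT-CO3 at -0.30 (adjusted p = 0.13) and MT-ATP6 at -0.41 (adjusted p = 0.096) were not called. The nuclear members that rose were NDUFB6 (0.30, adjusted p = 0.027), NDUFS3 (0.17, adjusted p = 0.020) and NDUFV1 (0.15, adjusted p = 0.019) of complex I and COX4I1 (0.17, adjusted p = 0.045) of complex IV, named here after their values were seen. NDUFS3, a core subunit, was at 77.1, 72.7 and 74.5 CPM with Longan low, against 65.1, 63.9 and 60.3 CPM in the vehicle. With all 54 libraries edgeR called none, where 0.107% of genes were called, while 1 nuclear and 13 of 13 mitochondrially encoded members had an unadjusted p under 0.05 and DESeq2 called 0 and 2. Without Longan low replicate 1 the counts were 1 mitochondrial and 0 nuclear, and without Longan low replicate 2 they were 13 and 9. At the medium dose 4 nuclear members fell and no mitochondrially encoded member was called in the fit of 52 libraries, where 0.537% of genes fell. With all 54 neither edgeR nor DESeq2 called any, where edgeR called 0.0118% of genes, and 1 nuclear and 2 mitochondrially encoded members had an unadjusted p under 0.05. The 4 nuclear calls became 0 without vehicle replicate 3 and 26 without vehicle replicate 1.

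With Zizyphi at the high dose, 12 nuclear members fell in the fit of 52 libraries, where 1.64% of all genes fell, and no mitochondrially encoded member was called. They were 4 subunits of complex I, 1 of complex II, 2 of complex III, 3 of complex IV and 2 of complex V. Over all 54 libraries edgeR and DESeq2 called none, where edgeR called 0.16% of genes, and 3 nuclear and 0 mitochondrially encoded members had an unadjusted p under 0.05. COX7C, a structural subunit of complex IV, was at 92.7, 84.3 and 89.6 CPM with Zizyphi, against 107, 113 and 109 CPM in the vehicle (-0.31, edgeR adjusted p = 0.0060). UQCRB, a subunit of complex III, was at 77.5, 71.5 and 75.8 CPM with Zizyphi, against 79.5, 106 and 114 CPM in the vehicle (-0.42, adjusted p = 0.0017). ATP5MK was at 43.9, 37.1 and 40.4 CPM with Zizyphi, against 51.4, 53.0 and 49.1 CPM in the vehicle (-0.35, adjusted p = 0.0016). NDUFS4, an accessory subunit of complex I, was at 21.4, 17.3 and 18.4 CPM with Zizyphi, against 22.9, 24.7 and 22.6 CPM in the vehicle (-0.31, adjusted p = 0.017). These 4 genes did not overlap the vehicle, which the rule for naming nuclear genes required. MT-ATP8, at 1356, 1904 and 1559 CPM with Zizyphi, overlapped it. The 12 nuclear calls became 2 without vehicle replicate 3 and 37 without vehicle replicate 1. At the medium dose 2 nuclear members and MT-ND3 fell in the fit of 52 libraries, where 0.456% of genes fell, and at the low dose 14 nuclear members and MT-ND3, where 0.964% fell. With all 54 neither edgeR nor DESeq2 called any member at these doses, where edgeR called 0.0296% and 0.0355% of genes. There 2 nuclear and 6 mitochondrially encoded members had an unadjusted p under 0.05 at the medium dose, and 4 and 1 at the low dose. Nuclear calls became 1 (medium) and 0 (low) without vehicle replicate 3, and 20 and 35 without vehicle replicate 1. MT-ND3 was lost at both doses without vehicle replicate 3.

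With Yijin-tang at the high dose, 10 nuclear members fell in the fit of 52 libraries, where 3.19% of all genes fell: 4 subunits of complex I, the assembly factor NDUFAF3, 1 subunit of complex III, 2 of complex IV and 2 of complex V. No mitochondrially encoded member was called. Across all 54 libraries edgeR and DESeq2 called none, where edgeR called 1.05% of genes, and 2 nuclear and 0 mitochondrially encoded members had an unadjusted p under 0.05. NDUFA7 was at 19.6, 20.0 and 21.0 CPM with Yijin-tang, against 22.6, 24.8 and 28.97 CPM in the vehicle (-0.37 ± 0.09, edgeR adjusted p = 0.0065). NDUFB7, an accessory subunit of the membrane arm of complex I, was at 23.8, 23.9 and 22.6 CPM with Yijin-tang, against 24.4, 31.0 and 31.7 CPM in the vehicle (-0.33, adjusted p = 0.0028). NDUFV3 changed by -0.26 (adjusted p = 0.0041) and ATP5MC2, a gene for subunit c of the rotating ring, by -0.25 (adjusted p = 0.032). All 4 stayed below the vehicle range, which the rule for naming nuclear genes required, NDUFB7 by a narrow margin. The 10 calls became 1 without vehicle replicate 3 and 28 without vehicle replicate 1. At the medium dose 12 nuclear and 2 mitochondrially encoded members fell in the fit of 52 libraries, where 2.09% of genes fell, and in the fit of all 54 neither edgeR, which called 0.42% of genes, nor DESeq2 called any. There 4 nuclear and 6 mitochondrially encoded members had an unadjusted p under 0.05. The medium-dose counts became 2 nuclear and 0 mitochondrial without vehicle replicate 3, 30 nuclear without vehicle replicate 1, and 6 mitochondrial without vehicle replicate 2.

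At the low dose of Yijin-tang the nuclear calls differed with and without replicate 2. With all 54 libraries 37 nuclear members were called higher, where 8.58% of all genes were, and 4 mitochondrially encoded members (MT-CO1, MT-ND1, MT-ND5 and MT-ATP8) lower, where 3.49% of all genes were, out of 12.1% called in either direction. There 67 nuclear and 9 mitochondrially encoded members had an unadjusted p under 0.05, and DESeq2 called 57 and 6. Without the pair of libraries no nuclear member was called higher, and 4 nuclear members, MT-ND3 and MT-ATP8 (-0.88 ± 0.22, adjusted p = 0.024) were called lower, where 0.952% of all genes fell. These became 0 nuclear and 0 mitochondrial without vehicle replicate 3, 17 nuclear without vehicle replicate 1, and 6 mitochondrial without vehicle replicate 2.

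With Soshiho-tang at the high dose, 1 member was called in the fit of all 54 libraries (n = 2 against 3), where 3.76% of all genes fell and 7.93% were called in either direction. It was MT-ND6, at 805 and 452 CPM with Soshiho-tang, against 1696, 987 and 1167 CPM in the vehicle (-1.03 ± 0.28, edgeR adjusted p = 0.014). The lower value is replicate 3, and without the pair of libraries the change was -0.65 (adjusted p = 0.13). The call was also lost without vehicle replicate 1, where the change was -0.78, and without Soshiho-tang high replicate 2 the mitochondrial calls numbered 7. In the fit of all 54 libraries 2 nuclear and 6 mitochondrially encoded members had an unadjusted p under 0.05, and DESeq2 called 1 and 2. The fit of 52 libraries leaves replicate 2 alone in this group, which is then assumed to vary like the other groups. In it 21 nuclear members fell, where 5.69% of all genes fell, and 1 rose, where 6.73% of all genes rose. The 21 were 5 subunits of complex I, 1 of complex II, 3 of complex III, 6 of 12 of complex IV and 6 of complex V. NDUFB1 was at 12.4 CPM in replicate 2, against 17.7, 20.3 and 21.6 CPM in the vehicle (-0.66, adjusted p = 0.0024), and at 36.8 CPM in replicate 3, above every vehicle library. COX7C was at 76.4 CPM in replicate 2, against 107, 113 and 109 CPM in the vehicle (-0.50, adjusted p = 0.00037), and at 141 CPM in replicate 3. UQCRB (-0.55, adjusted p = 0.0010) and ATP5F1E, the epsilon subunit of the synthase (-0.53, adjusted p = 0.0085), also fell, as did MT-ND3 (-0.72, adjusted p = 0.0046), while ATP5MF-PTCD1 rose (0.57, adjusted p = 0.011). Without a further vehicle library the 22 nuclear calls became 11 (replicate 3) or 35 (replicate 1). At the medium dose 7 nuclear members and MT-ND3 fell in the fit of 52 libraries, where 0.825% of genes fell, and at the low dose 3 nuclear and 2 mitochondrially encoded members, where 0.952% fell. With all 54 neither edgeR nor DESeq2 called any at these doses, where edgeR called 0.237% and 0.101% of genes. There 3 nuclear and 3 mitochondrially encoded members had an unadjusted p under 0.05 at the medium dose, and 4 and 8 at the low dose. Without 1 vehicle library the nuclear calls became 0 (medium, replicate 3; low, replicate 2) to 22 and 30 (replicate 1), and both mitochondrial counts became 0 without replicate 3.

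**Figure D5:**
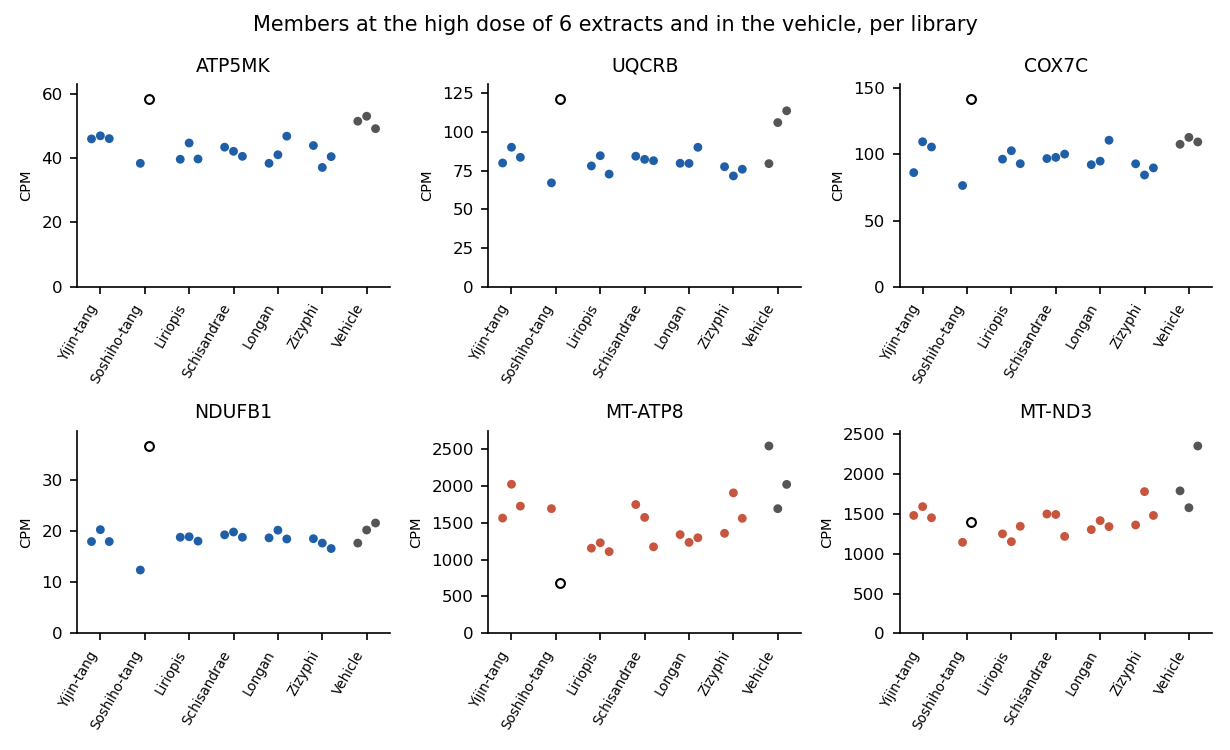
CPM per library of 4 nuclear (blue) and 2 mitochondrially encoded members (red) at the high dose of 6 extracts and in the vehicle (grey), 1 point per library. The open point is Soshiho-tang high replicate 3, which is above every vehicle library for ATP5MK, UQCRB, COX7C and NDUFB1 and at 689 CPM for MT-ATP8. ATP5MK is at 37.1 to 46.9 CPM in every other extract library plotted and at 49.1 to 53.0 CPM in the vehicle. The rule that named ATP5MK for Liriopis, Schisandrae, Longan and Zizyphi required no overlap with the vehicle. At the low dose of Longan, not plotted, ATP5MK was at 46.3 to 55.9 CPM. Polygalae, also not plotted, had 53.8, 41.9 and 45.2 CPM at the low, medium and high dose. Aucklandiae had 42.8 CPM at the low and 48.0 CPM at the high dose.

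Within an extract, high and low dose come from 1 library set. The comparison for Longan gave 13 nuclear members lower at the high dose in the fit of 52 libraries (14.6%, where 1.03% of all genes fell) and MT-ND4L higher (where 4.42% of all genes rose). The 13 were 8 subunits of complex I, 3 of complex IV and 2 of complex V. COX7A2L, which takes part in joining complexes III and IV, was at 57.9, 56.6 and 62.9 CPM at the high dose, against 78.3, 64.7 and 65.3 CPM at the low dose (-0.20 ± 0.05, edgeR adjusted p = 0.0096). NDUFC2, an accessory subunit of complex I, was at 79.7, 77.7 and 74.9 CPM at the high dose, against 93.8, 86.6 and 92.7 CPM at the low dose (-0.20, adjusted p = 0.040). NDUFB5 changed by -0.22 (adjusted p = 0.038) and ATP5PO, the stalk subunit also called OSCP, by -0.19 (adjusted p = 0.022). MT-ND4L was at 1359, 1201 and 1223 CPM at the high dose, against 790, 1026 and 1047 CPM at the low dose (0.43 ± 0.12, adjusted p = 0.026). These 5 did not overlap between doses, which the rule for naming required of the nuclear genes but not of MT-ND4L. The 13 nuclear calls became 0 without Longan low replicate 1 and 16 without Longan low replicate 2, and the MT-ND4L call was lost without Longan high replicate 1. Fitted with all 54 libraries, edgeR and DESeq2 called none, where edgeR called 0.0178% of genes, and 1 nuclear and 0 mitochondrially encoded members had an unadjusted p under 0.05.

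For Yijin-tang, 72 of 89 nuclear members were called lower at the high dose with all 54 libraries, where 14.1% of all genes were lower and 21% were called in either direction, and DESeq2 called 74. NDUFC2 was at 78.9, 77.4 and 76.7 CPM at the high dose, against 87.3, 254 and 84.6 CPM at the low dose (-0.94 ± 0.21, edgeR adjusted p = 0.0052), the middle value being replicate 2. NDUFB7 was at 23.8, 23.9 and 22.6 CPM at the high dose, against 27.2, 74.9 and 25.9 CPM at the low dose (-0.93, adjusted p = 0.0050). NDUFB11 (-0.77, adjusted p = 0.0068) and NDUFS5 (-0.73, adjusted p = 0.0099), both of complex I, showed the same single high library. Without the pair of libraries no member was called, the 4 changes were -0.12, -0.15, -0.08 and -0.02, and 0.652% of all genes were called. No mitochondrially encoded member was called with all 54 libraries by edgeR or DESeq2, and 3 had an unadjusted p under 0.05, while 4 were called without Yijin-tang low replicate 3.

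For Soshiho-tang, the assembly factor NDUFAF5 was called with all 54 libraries, at 8.97 and 9.86 CPM at the high dose, against 7.98 and 7.93 CPM at the low dose (0.31 ± 0.10, edgeR adjusted p = 0.041), where 3.26% of all genes rose and 6.29% were called in either direction. DESeq2 called 1 nuclear member, which was not NDUFAF5, 4 nuclear and 0 mitochondrially encoded members had an unadjusted p under 0.05, and the NDUFAF5 call was lost without any 1 of the 4 libraries. With replicate 2 alone at the high dose, NDUFA12 was higher (0.36, adjusted p = 0.043), where 4.41% of genes rose, and NDUFB1 (-0.55, adjusted p = 0.026), COX7C (-0.37, adjusted p = 0.018) and COX7A2L (-0.25, adjusted p = 0.038) were lower, where 3.43% fell. NDUFB1 at the high dose was at 12.4 CPM in replicate 2 and 36.8 CPM in replicate 3, against 19.8 and 18.9 CPM at the low dose.

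For Liriopis, Schisandrae and Zizyphi no member was called between the high and the low dose in either fit, nor by DESeq2. With all 54 libraries 0%, 0.189% and 0.0533% of all genes were called for these extracts, and with 52 libraries 0%, 0.519% and 0.242%. In the fit of 54 libraries the unadjusted p was under 0.05 for 1 nuclear member with Zizyphi and for 0 members of either genome with Liriopis and Schisandrae. The median over the mitochondrially encoded members was above 0 in all 6 comparisons of doses with all 54 libraries, at 0.10 for Liriopis, 0.13 for Schisandrae, 0.14 for Zizyphi, 0.20 for Longan, 0.22 for Yijin-tang and 0.05 for Soshiho-tang. In the fit of 52 libraries Yijin-tang's was 0.15, and Soshiho-tang's was 0.34 with replicate 2 alone at its high dose. Starting from all 54 libraries, Soshiho-tang's was -0.41 without its high replicate 2 and -0.04 without its low replicate 3.

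Between both extracts of a set at the high dose few members were called. For Yijin-tang against Soshiho-tang, edgeR and DESeq2 called none with all 54 libraries, where edgeR called 3.72% of genes, and 3 nuclear and 2 mitochondrially encoded members had an unadjusted p under 0.05. Against Soshiho-tang replicate 2 alone, NDUFB1 (0.55, adjusted p = 0.026) and COX7C (0.34, adjusted p = 0.032) were higher with Yijin-tang, where 1.95% of all genes were, and NDUFB7 was lower (-0.35, adjusted p = 0.037), where 2.98% were. These 3 calls became 0 without Yijin-tang high replicate 2 and 5 without Yijin-tang high replicate 1. For Schisandrae against Liriopis no member was called in either fit, where 0.0947% (54 libraries) and 0.421% (52 libraries) of genes were, and for Longan against Zizyphi none, where 0.0237% and 0.0519% were. DESeq2 called none in these 2 comparisons either, and the only member with an unadjusted p under 0.05 was 1 nuclear member for Schisandrae against Liriopis.

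Aucklandiae at the high dose, with 1 library, held the lowest nuclear share of all libraries, and its values have no replicate check. Of 89 nuclear members 71 (79.8%) lay below all 3 vehicle libraries, where 47.2% of 13232 genes with at least 1 CPM did, with a median log2 ratio to the vehicle mean of -0.31. The complex medians ran from -0.37 (complex III) to -0.18 (assembly factors). All 13 mitochondrially encoded members lay below the vehicle range, with a median of -0.73. MT-ATP8 was at 1426, 1148 and 890 CPM at the low, medium and high dose, against 1690 to 2539 CPM in the vehicle, and MT-ND3 at 1347, 1395 and 1014 CPM, against 1577 to 2352 CPM. ATP5IF1 was at 92.5, 88.7 and 51.6 CPM at the low, medium and high dose, against 92.1 to 118 CPM in the vehicle, a log2 ratio of -1.001 at the high dose. ATP5MC2 (-0.74) and NDUFB1 (-0.72) followed. NDUFAF3 (0.26), SDHB, the iron-sulfur subunit of complex II (0.21), and NDUFAF1 (0.17) lay highest. Of 82 cytosolic ribosomal protein genes 81 also lay below the vehicle range, with a median of -0.54, and fibroblast and endothelial markers summed to 12.2 CPM, against 2.96 to 4.00 CPM in the vehicle, with PECAM1 at 8.10 CPM. The part of these in the member values was not tested. At medium and low doses 39 and 37 nuclear members lay below the vehicle range, where 26.9% and 18.1% of genes did, and 7 mitochondrially encoded members at each dose.

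Polygalae at the high dose, also with 1 library, had 51 nuclear members (57.3%) below all 3 vehicle libraries, where 23.4% of all genes did, and 5 of 13 mitochondrially encoded members. Above the vehicle range lay 7.87% of nuclear members, where 50.2% of all genes did. ATP5F1A, the alpha subunit of the synthase, was at 282, 235 and 144 CPM at the low, medium and high dose, against 260 to 276 CPM in the vehicle, a log2 ratio of -0.90 at the high dose. The core proteins of complex III followed, with UQCRC2 at 165, 147 and 100 CPM, against 147 to 161 CPM in the vehicle, and UQCRC1 at 103, 86.8 and 64.0 CPM, against 94.9 to 100 CPM. ATP5MF-PTCD1 (0.40), NDUFAF8 (0.34) and COX7A2L (0.30) lay highest. MT-ND6 (-0.79) and MT-ATP8 (-0.58) were lowest among the mitochondrially encoded members, and MT-CYB was at 0.03. Of 18 genes of the tricarboxylic acid cycle 15 lay below the vehicle range, with a median of -0.25. At medium and low doses 52 and 20 nuclear members lay below it, where 21.8% and 15% of genes did, and 4 and 6 mitochondrially encoded members. At the medium dose 59.8% of the cytosolic ribosomal protein genes lay below the vehicle range, and their part in the member values was not tested.

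Other genes of the pathway were taken from lists by role. With all 54 libraries, Soshiho-tang at the high dose had several called, where 7.93% of all genes were called in either direction. CYC1, the cytochrome c1 of complex III that the symbol rule leaves out, was 1 of 8 further complex III genes that rose (0.22, edgeR adjusted p = 0.011). Of 18 tricarboxylic acid cycle genes IDH3A (0.26), DLST (0.23) and DLAT (0.21) rose and IDH2, the NADP-linked isocitrate dehydrogenase, fell (-0.30, adjusted p = 0.00096). Of 12 genes of the mitochondrial unfolded protein and integrated stress responses 4 rose, which were TRIB3 (0.59, adjusted p = 7.2e-06), GDF15 (0.47), ASNS (0.30) and the protease LONP1 (0.16). Of 20 genes of mitochondrial RNA processing PNPT1, FASTKD3 and TBRG4 rose, by 0.22 to 0.26, as did GRPEL1 of 26 import genes (0.27) and, of 18 genes of mitochondrial transcription and genome maintenance, TWNK, the mitochondrial DNA helicase (0.23), and LONP1. Against its own low dose, where 6.29% of all genes were called, TRIB3 (0.50), GDF15 (0.69), ASNS (0.33), CHAC1 (0.75, adjusted p = 8.7e-05), IDH3A (0.31) and TOMM34 (0.21) were higher, and IDH2 lower (-0.27). CHAC1, TRIB3, ASNS and GDF15 were also lower with Yijin-tang than with Soshiho-tang at the high dose, at -0.70, -0.60, -0.39 and -0.81, as was TIMM44 (-0.22), where 3.72% of all genes were called. Soshiho-tang replicate 3 is in all 3 comparisons, and with it left out 2 of the 12 stress genes rose against the vehicle, where 6.73% of all genes rose. Other calls of these lists for Soshiho-tang are not given without that replicate. At the low dose of Yijin-tang with all 54 libraries, 12.1% of all genes were called. There 7 of 26 import genes (TIMM13 at 0.75), 8 of 23 complex IV assembly factors, 3 of 12 complex I assembly factors outside the rule, 3 of 8 further complex III genes (UQCC3 at 0.87) and 4 of 20 RNA processing genes were called higher, and COX10 (-0.41) and the regulator PPARGC1B (-0.37, adjusted p = 0.049) lower. These values include replicate 2, which stood apart, and list calls without it are not given here. For Yijin-tang at the high dose IDH2 fell in the same fit. No other gene of these lists was called at the high dose of Liriopis, Schisandrae, Longan or Zizyphi with all 54 libraries. With 52 libraries, cytosolic ribosomal protein genes, listed for comparison, had 20 of 82 lower with Liriopis (2.08% of all genes), 9 with Schisandrae (2.78%), 8 with Longan (1.1%), 22 with Zizyphi (1.64%) and 15 with Yijin-tang (3.19%) at the high dose, and none higher. The 9 tested regulators of respiratory genes, NRF1 and GABPA among them, had medians of -0.03 to 0.04 at the 6 high doses, and none was called at these doses with all 54 libraries.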

How the data were processed

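The deposited table holds expected counts per gene (RSEM estimates, not normalised) that the authors made from 100 bp paired reads. Tools listed in the submitters' processing notes were STAR 2.7.3a, RSEM 1.3.3, Trim Galore 0.6.5 and FastQC 0.11.9, with build GRCh38. The annotation release and the counting strand are not given in the sources used here. Of the values, 89.9% were whole (tolerance 1e-09), and all were rounded.

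The 54 libraries of 19 groups with replicates entered 1 edgeR 4.0.16 quasi-likelihood fit (R 4.3.3, filterByExpr, TMM scaling, group as the only term), with Benjamini-Hochberg adjusted p under 0.05. Groups with 1 library got no test. Alternatives were RLE scaling, no filter, scaling without mitochondrial genes, a replicate block, DESeq2 1.42.0, leaving out each library, and leaving out the pair that stood apart. Code was tested on simulated data.

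Named genes were the called members with the largest changes, up to 4 nuclear each way with no overlap between groups and up to 3 mitochondrial each way, plus the highest member per complex. Members, lists and alternatives were chosen with earlier results of these data known. Wortmannin libraries were not analysed here.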

Additional observations from a re-analysis of the deposited data

Results flagged for a closer look

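Among the 6 members called and named in the fit of 54 libraries, 3 cases were found in which a nuclear complex I gene lay in opposite directions in the extracts of a set, with every library of each high dose outside the range of its low dose. By the same rule 1 of 102 members (0.98%), against 1.39% of all 16890 genes tested, did so for Yijin-tang and Soshiho-tang. For Longan and Zizyphi 4 of 102 members (3.92%) did, against 1.26% of all genes, and for Schisandrae and Liriopis 0 members, against 0.332%. None of these differences was tested. NDUFAF5, an assembly factor, was at 8.51, 7.43 and 8.761 CPM at Longan high, against 8.762, 8.92 and 9.21 CPM at Longan low, and at 8.57, 8.21 and 8.40 CPM at Zizyphi high, against 7.95, 7.36 and 7.24 CPM at Zizyphi low, so that the change of Longan minus that of Zizyphi was -1.61 CPM. NDUFB7 was at 25.6, 27.9 and 27.8 CPM at Longan high, against 29.5, 28.6 and 29.5 CPM at Longan low, and at 27.1, 26.8 and 27.2 CPM at Zizyphi high, against 23.9, 26.2 and 25.5 CPM at Zizyphi low, a change of Longan minus that of Zizyphi of -3.95 CPM. NDUFB7 was also at 23.8, 23.9 and 22.6 CPM at Yijin-tang high, against 27.2, 74.9 and 25.9 CPM at Yijin-tang low, and at 28.97 and 30.93 CPM at Soshiho-tang high, against 27.0 and 26.2 CPM at Soshiho-tang low. The change of Yijin-tang minus that of Soshiho-tang was -22.6 CPM, which rests on the 74.9 CPM of Yijin-tang low replicate 2. NDUFB7 had been named for its fall between the doses of Yijin-tang without overlap, so that the Yijin-tang side of this case was met by selection.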

How the results depend on the processing

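Counts of called members depended on the libraries that stand apart. Without Yijin-tang low replicate 2 and Soshiho-tang high replicate 3, nuclear calls against the vehicle numbered 10 for Yijin-tang, 22 for Soshiho-tang, 13 for Liriopis, 10 for Schisandrae, 9 for Longan and 12 for Zizyphi at the high dose, and mitochondrial calls 1 for Soshiho-tang and 3 each for Liriopis, Schisandrae and Longan. Nuclear calls then numbered 0 between the doses of Yijin-tang, 4 for Soshiho-tang, 13 for Longan (with 1 mitochondrial) and 3 for Yijin-tang against Soshiho-tang. DESeq2 called 1 nuclear and 2 mitochondrial members for Soshiho-tang high and 1 mitochondrial member for Liriopis high. With no filter on low counts the mitochondrial calls were 5 for Soshiho-tang high, 2 for Liriopis high, 1 for Schisandrae high and 1 between the doses of Yijin-tang, and the nuclear calls between the doses of Soshiho-tang 0. For these the cause was not tested, and the shares of all genes called with DESeq2 or with no filter are not given here.

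Leaving out 1 of the 54 libraries gave 0 to 1 nuclear and 0 to 7 mitochondrial calls for Soshiho-tang high, 0 to 84 and 0 to 4 between the doses of Yijin-tang, 0 to 1 nuclear between those of Soshiho-tang, and 0 to 1 and 0 to 2 for Yijin-tang against Soshiho-tang.
From the fit of 52 libraries, leaving out 1 more (chosen after seeing the data) gave 1 to 28 nuclear calls for Yijin-tang high against the vehicle, 11 to 35 for Soshiho-tang, 3 to 35 for Liriopis, 2 to 32 for Schisandrae, 0 to 30 for Longan and 2 to 37 for Zizyphi. Mitochondrial calls stayed at 1 for Soshiho-tang and ran from 0 to 2 for Yijin-tang, 2 to 6 for Liriopis, 0 to 7 for Schisandrae, 0 to 4 for Longan and 0 to 1 for Zizyphi. Between the doses of Longan these fits gave 0 to 16 nuclear and 0 to 2 mitochondrial calls, and for Yijin-tang against Soshiho-tang 0 to 5 nuclear calls. The share of all genes called with a library left out is not given here, so that these ranges are not shown to be particular to the members.

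The pairing by replicate number was checked: in 0 of the 22 comparisons with 3 same-numbered pairs did all deviate together (correlation over 0.1), and the 5 comparisons with Soshiho-tang had 2 pairs. With a replicate block 2 nuclear members were called between the doses of Soshiho-tang.

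Medians over members kept their sign in 54 of 54 cases under DESeq2, RLE scaling, no filter, the replicate block and scaling without mitochondrial genes, in 49 of 54 without the pair of libraries, and in 292 of 312 with 1 library left out. Having 3 vehicle libraries, in a set of their own, limits every comparison with the vehicle.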
